A study of Bos taurus with 56 samples.

Results

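Mucosal surfaces carry genes for secreted antimicrobial proteins, for the receptor that moves antibodies into the lumen, and for mucins. Among 31903 annotated genes of cattle (Bos taurus), 10 such genes were followed by symbol, and all 10 were found: BPIFA1 and BPIFB1, PIGR, LTF and LCN2, WFDC2, MUC1, MUC4 and MUC16, and SPP1. They were measured by RNA sequencing in the oviduct epithelium of Holstein females, in all 12 combinations of metabolic group, oviduct region and side.

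BPIFA1 and BPIFB1 encode secreted proteins of the bactericidal/permeability-increasing fold, which bind lipids of bacterial surfaces and coat airway and oral epithelium. PIGR encodes the polymeric immunoglobulin receptor, which carries dimeric IgA and pentameric IgM across epithelial cells and is cleaved at the luminal face. LTF encodes lactoferrin and LCN2 encodes lipocalin 2; the former binds iron and the latter binds the siderophores with which bacteria take iron up. WFDC2 encodes a small secreted whey acidic protein domain protein that is abundant in reproductive tract epithelium. MUC1, MUC4 and MUC16 encode membrane-anchored mucins whose heavily glycosylated outer parts form a layer over the apical cell surface, and SPP1 encodes osteopontin, a secreted phosphoprotein bound by integrins and CD44.

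The animals were 5 nulliparous heifers, 5 primiparous cows that were never milked after calving (non-lactating) and 4 primiparous cows that were milked daily (lactating), the cows about 60 days post-partum. All were slaughtered without insemination on Day 3 after an oestrus synchronized with a progesterone device, a prostaglandin analogue and buserelin. From each animal, epithelial cells were collected by scraping from the isthmus, the narrow segment next to the uterus, and from the ampulla, the wide segment where fertilization takes place, in the oviduct on the side of the fresh corpus luteum (ipsilateral) and in the opposite one (contralateral). Each of the 56 stranded total RNA libraries came from 1 animal and 1 tissue. Heifers differed from cows in having neither calved nor been post-partum, so these states cannot be told apart in the comparisons with heifers.

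The libraries held 1901454 to 6836850 counts on genes (median 4931502.5). Values are given below as CPM, each count scaled to the library's total on genes times its TMM scaling factor (0.89 to 1.05). A level of 3 reads corresponded to 0.445 to 1.55 CPM, which covers counting error only, and values below that level were read as near the limit of detection. Gene lengths were not used, so CPM is compared between libraries for 1 gene and never between genes. The epithelial markers EPCAM, CDH1, KRT8, KRT18, KRT19, CLDN3 and CLDN4 summed to between 971 and 2239.6 CPM in the 56 libraries. In a bulk library, fewer cells of a type and less RNA per cell cannot be told apart.

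Libraries were matched to animals by the 200 genes that varied most between animals relative to within them. Of the 56 libraries, 52 were closest to the animal whose number they carry, and 4 ipsilateral ampulla libraries were not. The 200 genes were chosen by these same numbers in all 56 libraries, which favours a match to the own number. The 52 matches are therefore no independent check of identity. The library labelled heifer B was closest to non-lactating cow B and the library labelled non-lactating cow B was closest to heifer B. A non-lactating library carried the number of lactating cow B and a lactating library that of non-lactating cow C, although each was closest to an animal of its own labelled group. All 4 were kept under their labels, listed below at the place of animal B for the heifer library, animal B for the first non-lactating library, the third place for the other non-lactating library and the second place for the lactating library. Results that use the ipsilateral ampulla are therefore also given without these libraries where that matters.

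The isthmus was first compared with the ampulla on each side, over the 3 groups. On the ipsilateral side 9 of the 10 were abundant enough to be tested and 6 differed (edgeR quasi-likelihood test, adjusted p under 0.05), against 50.3% of all genes tested. BPIFB1, LTF, BPIFA1 and MUC1 were higher in the isthmus, and PIGR and MUC16 were higher in the ampulla. On the contralateral side 8 were tested and 6 differed, against 43.5% of all genes: BPIFB1, SPP1, MUC4 and MUC1 were higher in the isthmus, and PIGR and MUC16 in the ampulla. The 6 ipsilateral calls also passed without the 4 mismatched libraries. BPIFA1 passed the filter on low counts only through the isthmus, since no ipsilateral ampulla library held 10 of its reads, so its call is no support for the count. LCN2 did not pass that filter in either comparison, and BPIFA1 did not on the contralateral side. SPP1 held 10 reads in only 3 of 14 contralateral isthmus and 1 of 14 contralateral ampulla libraries, and its call depended on single animals. DESeq2, which called 41.7% of all genes on the ipsilateral and 36.4% on the contralateral side, also called LCN2 on the ipsilateral side (adjusted p = 0.00155) and BPIFA1 on the contralateral side (adjusted p = 0.00421), and it gave no adjusted p for SPP1 on the contralateral side.

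The sides of the oviduct were then compared within each region. Over the 3 groups, 9 genes were tested in the isthmus and 5 differed, against 28.4% of all genes tested (32.6% with the animal as a block in the fit, which called the same number of these 9). LTF, BPIFA1, BPIFB1 and WFDC2 were higher on the side of the corpus luteum and MUC4 was lower. In the ampulla 7 were tested and 1 differed, PIGR, which was lower on the side of the corpus luteum; 4.99% of all genes were called there. With the animal as a block, 7.58% of all genes and 4 of the 7 were called in the ampulla, adding WFDC2, MUC1 and MUC4. When 2 of the mismatched libraries were given each other's animal number and the other 2 were left out, that fit called PIGR, WFDC2 and MUC4, and MUC1 had an adjusted p of 0.0937. The share of all genes called by this last fit is not given, so its calls are a description.

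**Figure D1:**
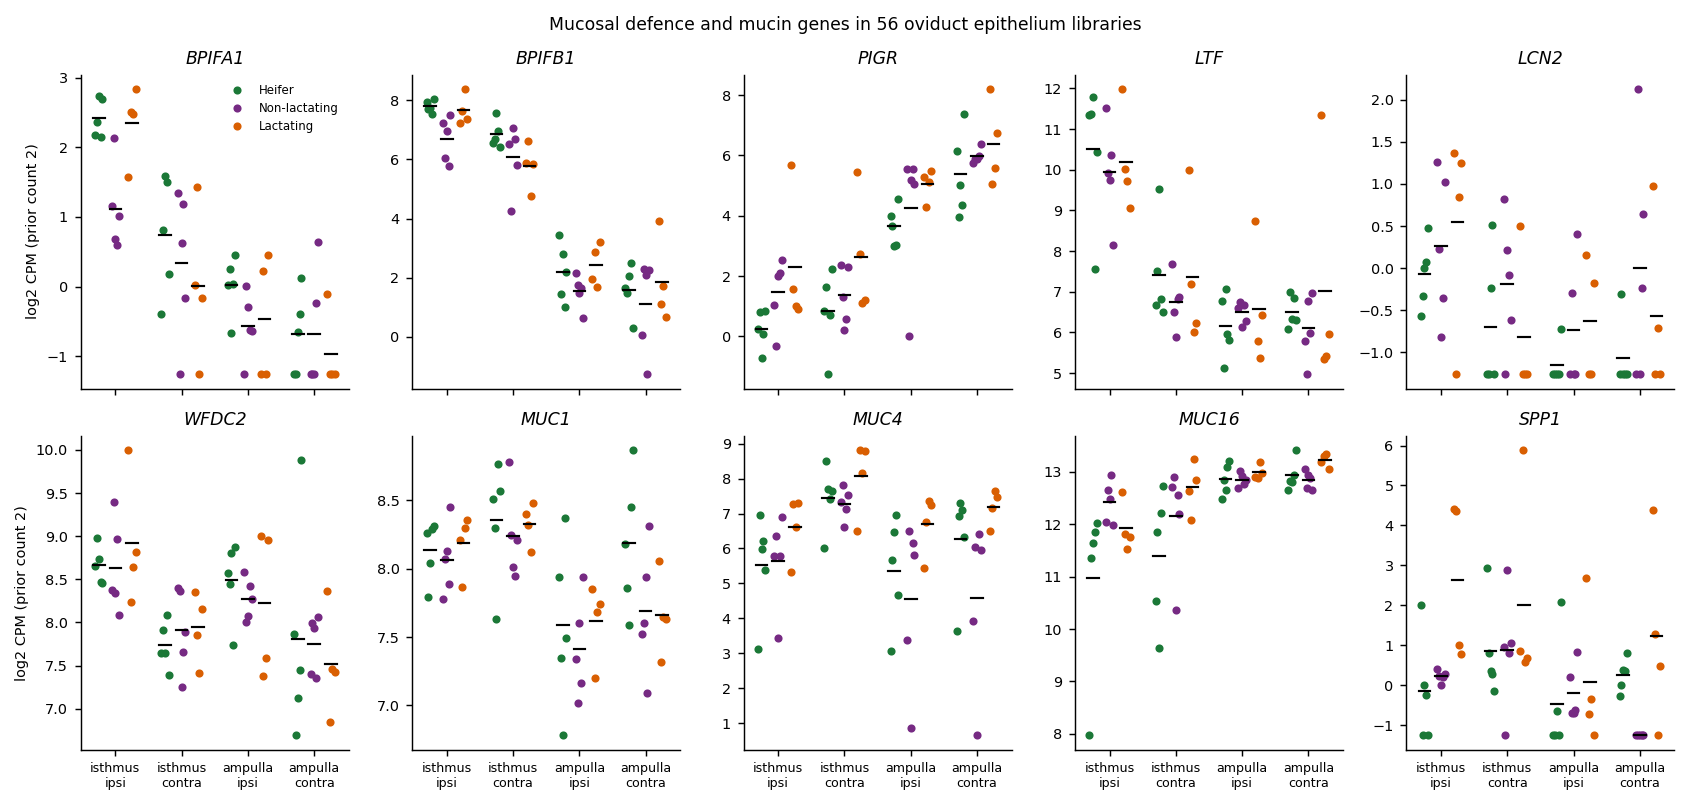
Level of each gene in the 56 libraries, as log2 CPM with a prior count of 2, by region and side; each point is 1 library, the colour gives the metabolic group, and the bar is the mean of the group. BPIFB1 drops from a median of 182 CPM in the ipsilateral isthmus to 3.23 CPM in the ipsilateral ampulla, PIGR climbs from 1.53 to 28 CPM, and the lowest points of BPIFA1, LCN2 and SPP1 are libraries with 0 reads.

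BPIFB1 had the widest difference between regions. In the ipsilateral isthmus of heifers A to E it measured 241, 206, 213, 186 and 262 CPM, and in their ipsilateral ampulla 10.3, 2.31, 6.52, 1.62 and 4.19 CPM. In the non-lactating cows it measured 150.4, 64.9, 123, 54.5 and 178 CPM in the ipsilateral isthmus and 4.07, 2.96, 2.38, 2.73 and 1.13 CPM in the ipsilateral ampulla. In the lactating cows A to D the ipsilateral isthmus held 148, 199, 333 and 165 CPM and the ipsilateral ampulla 3.51, 6.95, 2.81 and 8.76 CPM. Every ipsilateral isthmus library lay above every ampulla library, and the isthmus exceeded the ampulla 40.9-fold (log2 fold change 5.35 ± 0.24, adjusted p = 6.8e-17). On the contralateral side the difference was 24-fold (log2 fold change 4.58 ± 0.38, adjusted p = 3.56e-11), and it had that direction in 14 of 14 animals.

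Within the isthmus, BPIFB1 was also higher on the side of the corpus luteum. The contralateral isthmus held 94, 103, 191, 122 and 85.4 CPM in heifers A to E, 92.3, 18.6, 133, 104 and 55.6 CPM in the non-lactating cows and 59.1, 98.2, 26.5 and 56.8 CPM in the lactating cows. The values of the 2 sides overlapped in heifers and in non-lactating cows but not in lactating cows, where the lowest ipsilateral value was 148 and the highest contralateral value 98.2 CPM. The ipsilateral isthmus was 1.99-fold higher over the groups (log2 fold change 0.99 ± 0.24, adjusted p = 0.00242), in 12 of 14 animals. In the ampulla, where the values ran from 0 to 14.5 CPM, the sides differed by 0.27 ± 0.4 on the log2 scale (adjusted p = 0.78).

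BPIFA1 had the same pattern at few reads. In heifers it measured 4.1, 4.73, 6.24, 4.02 and 6.08 CPM in the ipsilateral isthmus and 0.346, 1.33, 2.6, 2.42 and 0.72 CPM in the contralateral isthmus, with no overlap between the sides. The non-lactating cows had 1.8, 3.98, 1.19, 1.1 and 1.61 CPM on the ipsilateral and 2.11, 0, 1.13, 1.85 and 0.475 CPM on the contralateral side, and these overlapped. The lactating cows had 2.56, 5.28, 5.17 and 6.72 CPM on the ipsilateral and 0.599, 2.28, 0 and 0.47 CPM on the contralateral side, again without overlap. These values stood on 6 to 41 reads a library in the ipsilateral isthmus and 0 to 12 in the contralateral one. The ipsilateral isthmus was 2.97-fold higher (log2 fold change 1.57 ± 0.36, adjusted p = 0.00154), in 12 of 14 animals. In the ipsilateral ampulla no library had more than 5 reads, with a median of 2.5 reads against 20 in the ipsilateral isthmus, so no fold is given. In the contralateral ampulla 8 of 14 libraries had none.

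LTF stood out by the size of its difference between sides. In heifers A to E it measured 2604, 2659.9, 3545, 188 and 1379 CPM in the ipsilateral isthmus and 102, 182, 737, 111 and 90.7 CPM in the contralateral isthmus. Heifer D was the lowest of the ipsilateral libraries and heifer C the highest of the contralateral ones, so that the sides overlapped although each animal was higher on its ipsilateral side. In non-lactating cows A to E the ipsilateral isthmus held 2965, 962, 863, 1312 and 286 CPM and the contralateral isthmus 203, 90.1, 58.9, 112 and 115 CPM, with no overlap. In lactating cows A to D the ipsilateral isthmus held 4068, 1042, 847 and 535 CPM and the contralateral isthmus 1016, 146, 63.5 and 75.2 CPM, where cow A was the highest on both sides. LTF was higher on the side of the corpus luteum in 14 of 14 animals, 7.94-fold over the groups (log2 fold change 2.99 ± 0.49, adjusted p = 4.58e-05). Without lactating cow A the log2 fold change was 3.23 ± 0.4 (adjusted p = 2.49e-06).

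In the ampulla the lactoferrin transcript did not follow the side in the same way. Heifers had 109, 34.7, 134, 61.6 and 55.7 CPM in the ipsilateral and 67.1, 126, 80.2, 114 and 79.1 CPM in the contralateral ampulla. Non-lactating cows had 97.1, 108, 70.1, 102 and 76.9 CPM in the ipsilateral and 55.2, 30.9, 109, 63.1 and 124 CPM in the contralateral ampulla. Lactating cows had 426, 54.8, 40.8 and 85.3 CPM in the ipsilateral and 2587, 40, 42.1 and 62.5 CPM in the contralateral ampulla, cow A holding the top value of each. The log2 fold change between sides was -0.61 ± 0.5 (adjusted p = 0.557), and 0.07 ± 0.2 without lactating cow A (adjusted p = 0.911). The difference of the side effect between regions was tested directly: 5.89% of all genes had one, and of the 9 genes tested here LTF was called, by 3.59 ± 0.72 on the log2 scale (adjusted p = 0.0016). It was 3.15 ± 0.45 without lactating cow A (adjusted p = 2.74e-05) and 3.43 without the 4 mismatched libraries (adjusted p = 0.00732). With the animal as a block, 8.27% of all genes were called and MUC4 was added (log2 fold change -1.26, adjusted p = 0.0139).

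Between regions, LTF was 15.9-fold higher in the ipsilateral isthmus than in the ipsilateral ampulla (log2 fold change 3.99 ± 0.44, adjusted p = 1.09e-08), in 12 of 12 animals with both libraries. On the contralateral side the isthmus and ampulla medians were 112 and 73.1 CPM and the difference did not pass the test (log2 fold change 0.42 ± 0.56, adjusted p = 0.581). That value rested on single animals: it was 0.98 ± 0.29 (adjusted p = 0.00667) without lactating cow A, whose contralateral ampulla held 2587 CPM, and -0.00491 without heifer C, whose contralateral isthmus held 737 CPM.

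LCN2, the siderophore-binding partner in the same defence against iron uptake, was at the limit of detection. It measured at most 2.16 CPM in the isthmus and 3.96 CPM in the ampulla, and it had no read in 1 of 14 ipsilateral isthmus, 7 contralateral isthmus, 9 ipsilateral ampulla and 8 contralateral ampulla libraries. The median was 0.696 CPM in the ipsilateral isthmus, 0.119 CPM in the contralateral isthmus and 0 in either ampulla. All 12 animals with both ipsilateral libraries had more in the isthmus than in the ampulla, but the gene did not pass the filter on low counts with all libraries. Without lactating cow B it passed the filter and was called by edgeR (adjusted p = 0.00116), but it passed only through the isthmus. No ipsilateral ampulla library held more than 4 of its reads, against up to 12 in the ipsilateral isthmus. That call therefore adds no support for a difference, and no fold is given. DESeq2 called LCN2 on all libraries (adjusted p = 0.00155). Without that filter the ipsilateral difference between regions in edgeR had an adjusted p of 0.00355.

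**Figure D2:**
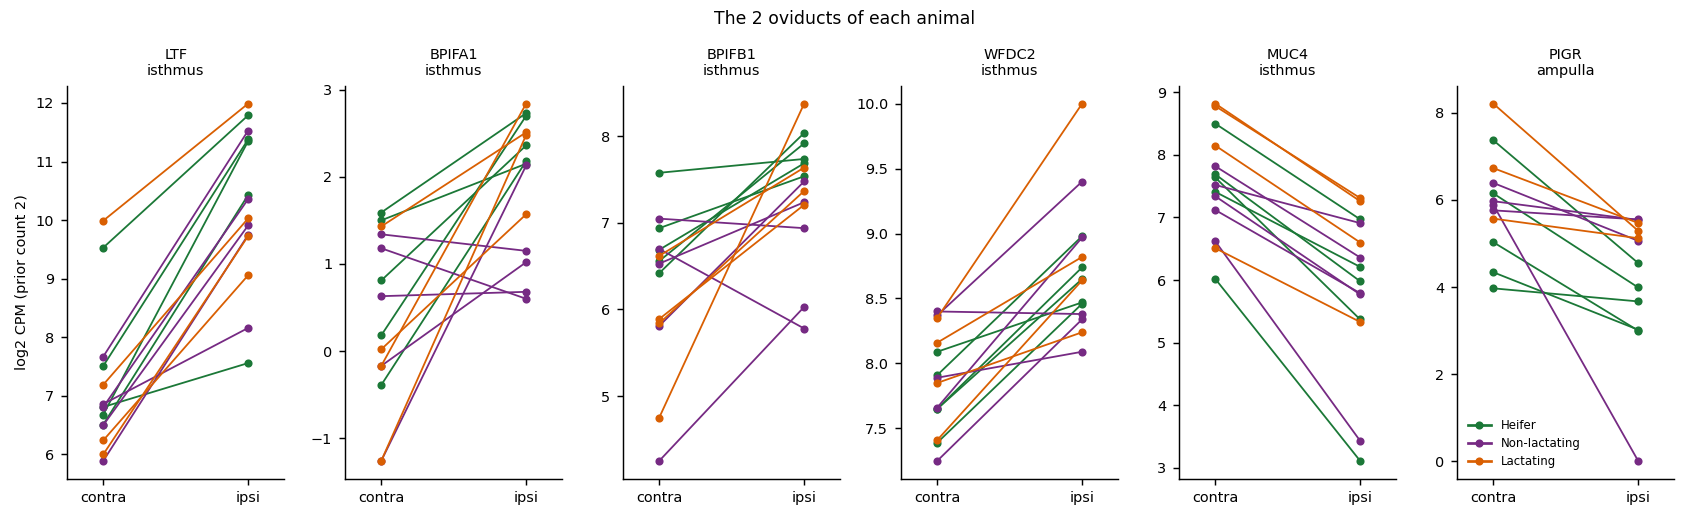
Level in the contralateral and the ipsilateral oviduct of the same animal, as log2 CPM with a prior count of 2; each line joins the 2 libraries that carry 1 animal's number within a group, and the colour gives the metabolic group. In the isthmus LTF is higher on the ipsilateral side in 14 of 14 animals and MUC4 lower in 14 of 14, and in the ampulla PIGR is lower on the ipsilateral side in 12 of 12.

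PIGR was higher in the ampulla than in the isthmus, and within the ampulla it was lower on the side of the corpus luteum. In the ipsilateral ampulla it measured 15.5, 12.3, 7.61, 7.67 and 23.1 CPM in heifers, 46.5, 0.592, 35.6, 46 and 32.9 CPM in non-lactating cows and 38.6, 19.3, 34.2 and 44 CPM in lactating cows. In the contralateral ampulla it measured 70.6, 15.3, 32.3, 19.9 and 165 CPM in heifers, 53.9, 58.8, 58.4, 62.4 and 83.6 CPM in non-lactating cows and 295, 32.5, 47.1 and 105 CPM in lactating cows. The contralateral mean was the higher one in every group, without overlap in non-lactating cows and with overlap in the other groups. The lowest value, 0.592 CPM, belonged to the mismatched library labelled non-lactating cow B. Over the groups PIGR was 3.13-fold lower on the side of the corpus luteum (log2 fold change -1.65 ± 0.37, adjusted p = 0.00971), in 12 of 12 animals with both libraries and in 10 of the 10 whose libraries matched. The log2 fold change was -1.47 without the 4 mismatched libraries (adjusted p = 0.0316) and -1.42 ± 0.37 without lactating cow A (adjusted p = 0.025).

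In the isthmus PIGR was low in all animals but one, with 10 or more reads in 5 of 14 libraries on either side. The ipsilateral isthmus held 0.77, 1.33, 0.195, 0.635 and 1.37 CPM in heifers, 1.62, 0.379, 3.56, 3.85 and 5.37 CPM in non-lactating cows and 50.5, 2.54, 1.59 and 1.48 CPM in lactating cows, and the contralateral isthmus had a median of 1.98 CPM with 43.7 CPM in lactating cow A. Lactating cow A thus had 50.5 and 43.7 CPM where the highest value in any other animal was 6.23 CPM. The isthmus was 6.8-fold lower than the ampulla on the ipsilateral side (log2 fold change -2.77 ± 0.53, adjusted p = 6.93e-05) and 17.4-fold lower on the contralateral side (log2 fold change -4.12 ± 0.5, adjusted p = 6.15e-08). Without lactating cow A the ipsilateral log2 fold change was -3.77 ± 0.39 (adjusted p = 6.41e-09). Within the isthmus the sides differed by -0.2 ± 0.58 on the log2 scale (adjusted p = 0.841).

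WFDC2 was present in every library and followed the side. In heifers A to E it measured 400, 504, 427, 354 and 351 CPM in the ipsilateral and 200.1, 239, 201, 272 and 167 CPM in the contralateral isthmus, without overlap. In non-lactating cows it measured 332, 677, 324, 501 and 273 CPM in the ipsilateral and 337, 331, 152, 202 and 237 CPM in the contralateral isthmus, with overlap. In lactating cows it measured 1024, 302, 399 and 452 CPM in the ipsilateral and 325, 231, 170.1 and 285 CPM in the contralateral isthmus, also with overlap. The ipsilateral isthmus was 1.87-fold higher (log2 fold change 0.9 ± 0.17, adjusted p = 0.000184), in 13 of 14 animals.

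In the ampulla WFDC2 had medians of 346 CPM on the ipsilateral and 175 CPM on the contralateral side and was higher on the ipsilateral side in 11 of 12 animals, but the difference did not pass the test without a block (log2 fold change 0.48 ± 0.24, adjusted p = 0.276). It passed with the animal as a block (log2 fold change 0.63, adjusted p = 0.0249) and without heifer E (0.77 ± 0.18, adjusted p = 0.0106). The contralateral ampulla library of heifer E held 942 CPM where the other 4 heifers held 103 to 233 CPM. In that library the secretory product gene OVGP1 measured 36154 CPM, against 6033 to 12622 CPM in the other heifers. Of the other secretory markers, KRT7 measured 134 CPM (others 49.8 to 68.9), PAX8 145 CPM (105 to 121) and SOX17 13.8 CPM (15.6 to 24.1). The 7 epithelial markers summed to 2239.6 CPM, against 1145 to 1239.8 CPM; their part in the WFDC2 value was not tested. Between regions WFDC2 differed by 0.37 ± 0.19 on the ipsilateral side (adjusted p = 0.0977, 0.0293 with the animal as a block and 0.079 with the block after the mismatched libraries were put right or left out) and by -0.04 ± 0.25 on the contralateral side (adjusted p = 0.923), both as log2 fold changes.

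Among the mucins, MUC4 fell on the side of the corpus luteum in the isthmus. In heifers A to E it measured 8.21, 125, 62.8, 73.7 and 40.8 CPM in the ipsilateral and 64.6, 362, 206, 170.1 and 199 CPM in the contralateral isthmus. The non-lactating cows had 54, 82, 10.4, 54.8 and 120.2 CPM in the ipsilateral and 162, 225, 98, 139 and 184 CPM in the contralateral isthmus. In lactating cows it measured 39.7, 152, 96.6 and 158 CPM in the ipsilateral and 91, 453, 285 and 440.2 CPM in the contralateral isthmus. The sides overlapped in each group and the animals differed widely, and MUC4 was lower on the ipsilateral side in 14 of 14 animals, 2.87-fold over the groups (log2 fold change -1.52 ± 0.32, adjusted p = 0.000664).

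In the ampulla the MUC4 medians were 63.7 CPM on the ipsilateral and 87.1 CPM on the contralateral side. It was lower on the ipsilateral side in 11 of 12 animals, and the log2 fold change of -0.4 ± 0.43 did not pass the test (adjusted p = 0.676); with the animal as a block it was -0.52 (adjusted p = 0.0241). The contralateral isthmus exceeded the contralateral ampulla 2.44-fold (log2 fold change 1.29 ± 0.35, adjusted p = 0.00341), in 14 of 14 animals. On the ipsilateral side the regions differed by 0.15 ± 0.41 on the log2 scale (adjusted p = 0.784), with 6 animals in each direction.

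MUC16 was higher in the ampulla. In heifers the ipsilateral isthmus held 249.6, 2601, 3194, 3701 and 4144 CPM and the ipsilateral ampulla 5768, 7315, 6449, 8703 and 9425 CPM. In non-lactating cows the ipsilateral isthmus held 4219.9, 6415, 5710, 7936 and 4078 CPM and the ipsilateral ampulla 6649.9, 8224, 7815, 6918 and 7339.9 CPM. In lactating cows the ipsilateral isthmus held 6303, 3619, 2944 and 3433 CPM and the ipsilateral ampulla 7659, 7603, 9347 and 8067 CPM. The regions overlapped in non-lactating cows only, and heifer A was far below the other ipsilateral isthmus libraries. MUC16 was lower in the isthmus 1.95-fold on the ipsilateral side (log2 fold change -0.96 ± 0.23, adjusted p = 0.000885), in 11 of 12 animals, and 1.66-fold on the contralateral side (log2 fold change -0.73 ± 0.23, adjusted p = 0.0114), in 13 of 14 animals.

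Markers of other cells moved with the region as well. The 7 mesothelial markers (among them UPK1B, UPK3B, MSLN and WT1; mesothelium is another known source of the MUC16 product) summed to 48.6 to 572 CPM in isthmus libraries and to 626 to 1236 CPM in ampulla libraries. Of the 5 that were tested, 4 were lower in the ipsilateral and 5 in the contralateral isthmus. Of the 10 ciliated cell markers, 9 were lower in the isthmus on either side, as were 3 of 4 endothelial markers, while all 7 epithelial markers were higher in the ipsilateral isthmus and 3 of 7 in the contralateral one. Among stromal and smooth muscle markers, the largest increases in the isthmus were in LUM, MYH11 and DCN. LUM was higher by 6.32 on the ipsilateral and 6.79 on the contralateral side, MYH11 by 5.13 and 4.89 and DCN by 2.7 and 3.71, as log2 fold changes, while COL1A2 was lower by -0.82 and -0.59. The neutrophil markers S100A8 and S100A12 were higher in the ipsilateral isthmus by 3.26 and 1.2. S100A8 had a median of 0.316 CPM in the ipsilateral ampulla, near the limit of detection. The 5 smooth muscle markers summed to a median of 54.1 CPM in the ipsilateral and 38.9 CPM in the contralateral isthmus, against 16.5 and 15.4 CPM in the ampulla. Other muscle markers went the other way. ACTA2 was lower by -0.82 on the ipsilateral side, and DES, also a mesothelial marker, by -1.36 on the contralateral side. TAGLN and CNN1 had no read in 45 and 44 of the 56 libraries. Among secretory markers SOX17 was higher by 0.79 and 0.93, PAX8 lower by -0.19 on the ipsilateral and KRT7 by -0.52 on the contralateral side. The T cell marker CD4 was lower in the isthmus (log2 fold change -1.96 and -2.15). Their part in the regional differences was not tested. Heifer A's ipsilateral isthmus, with 249.6 CPM of MUC16, also had the lowest sum of secretory markers of the ipsilateral isthmus, 345 CPM, against a median of 11223 CPM there, a sum in which OVGP1 is the main part in most libraries.

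The sides did not differ detectably in MUC16 at this spread, with a log2 fold change of -0.31 ± 0.31 in the isthmus (adjusted p = 0.484) and -0.1 ± 0.08 in the ampulla (adjusted p = 0.566). MUC1 was present in every library. Its medians were 288 and 316 CPM in the ipsilateral and contralateral isthmus and 186 and 216 CPM in the ampulla, with all 56 libraries between 109.8 and 468 CPM. It was 1.44-fold higher in the isthmus on the ipsilateral side (log2 fold change 0.53 ± 0.12, adjusted p = 0.000632) and 1.34-fold on the contralateral side (log2 fold change 0.42 ± 0.14, adjusted p = 0.0151). Between the sides its log2 fold change was -0.21 ± 0.1 in the isthmus (adjusted p = 0.125) and -0.33 ± 0.15 in the ampulla (adjusted p = 0.213, and 0.0384 with the animal as a block).

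SPP1 was scarce, with high values in single animals. In the isthmus of heifers it measured 3.59, 0, 0.585, 0.424 and 0 CPM on the ipsilateral and 7.26, 1.33, 0.867, 0.806 and 0.48 CPM on the contralateral side. In the isthmus of non-lactating cows it measured 0.902, 0.757, 0.593, 0.733 and 0.805 CPM on the ipsilateral and 1.53, 0, 6.94, 1.32 and 1.66 CPM on the contralateral side. In the isthmus of lactating cows it measured 20.6, 20.3, 1.59 and 1.31 CPM on the ipsilateral and 1.4, 58.9, 1.07 and 1.17 CPM on the contralateral side, so that cows A and B held the values above 20 CPM. The contralateral ampulla of all 5 non-lactating cows had no read, and that of lactating cow A held 20.4 CPM.

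SPP1 was 4.04-fold higher in the contralateral isthmus than in the contralateral ampulla (log2 fold change 2.01 ± 0.73, adjusted p = 0.0255), a call that depended on single animals. Without lactating cow B the log2 fold change was 1.27 ± 0.86 (adjusted p = 0.25), and without lactating cow A it was 3.14 ± 0.75 (adjusted p = 0.00116). With the animal as a block it was 1.77 (adjusted p = 0.0699). On the ipsilateral side the regions differed by 1.19 ± 0.74 on the log2 scale (adjusted p = 0.183), and by 2.05 ± 0.69 without heifer E (adjusted p = 0.0158). Between the sides of the isthmus the log2 fold change was -1.06 ± 0.66 (adjusted p = 0.239).

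**Figure D3:**
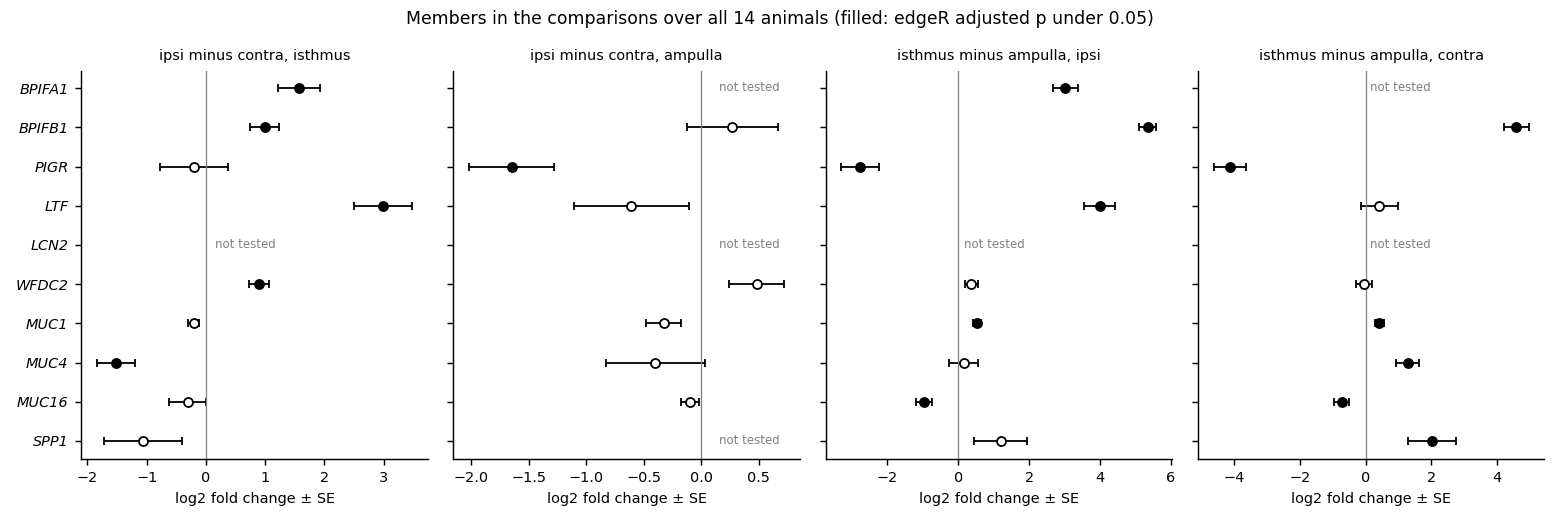
Log2 fold change of each gene in the 4 comparisons over all 14 animals, with its standard error as the bar; filled points passed the edgeR test at an adjusted p under 0.05 and "not tested" marks genes below the filter on low counts. LTF has the largest side difference in the isthmus (2.99 ± 0.49), PIGR is the filled point in the ampulla (-1.65 ± 0.37), and BPIFB1 and PIGR lie on opposite sides of 0 between regions; the horizontal scales differ between panels.

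Within each group, the sides of the isthmus gave fewer calls. In heifers 4 of the 7 tested genes differed, against 10% of all genes: BPIFA1 (log2 fold change 1.64 ± 0.41, adjusted p = 0.0259), BPIFB1 (log2 fold change 0.87 ± 0.2, adjusted p = 0.018), LTF (log2 fold change 3.05 ± 0.75, adjusted p = 0.0248) and WFDC2 (log2 fold change 0.89 ± 0.14, adjusted p = 0.0056). BPIFA1 passed the filter on low counts in heifers only through the ipsilateral side, with 16 to 32 reads there against 1 to 12. Its call is therefore no support for the count. The calls of BPIFA1, BPIFB1 and LTF were each lost without heifer A, B or E, with adjusted p between 0.0665 and 0.135. MUC4 in heifers had log2 fold change -1.71 ± 0.53, adjusted p = 0.0606, and was called with the animal as a block (adjusted p = 0.00075; 14.1% of all genes called).

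In non-lactating cows LTF was the 1 gene called among the 7 tested (log2 fold change 3.45 ± 0.52, adjusted p = 0.00429), against 5.11% of all genes. MUC4 had log2 fold change -1.34 ± 0.45, adjusted p = 0.103 there, and passed with the animal as a block (adjusted p = 0.00763; 7.48% of all genes called) and without cow C (-1.2 ± 0.26, adjusted p = 0.0405).

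In lactating cows edgeR called 0 of 8 tested genes, against 0.187% of all genes, although 6 of the 8 had an unadjusted p under 0.05 (12.2% of all genes). BPIFA1 was among these 6 and passed the filter only through the ipsilateral side, with 13 to 41 reads there against 0 to 11. It is therefore no support for that count. LTF had log2 fold change 2.32 ± 0.97, adjusted p = 0.375, BPIFB1 log2 fold change 1.82 ± 0.37, adjusted p = 0.104 and MUC4 log2 fold change -1.51 ± 0.51, adjusted p = 0.273. DESeq2 called 2.62% of all genes and 2 of these, BPIFB1 (adjusted p = 8.33e-05) and WFDC2 (adjusted p = 0.0486). With the animal as a block, 2.32% of all genes and 4 of the 8 were called, LTF (adjusted p = 0.000962), MUC4 (adjusted p = 0.000882), WFDC2 (adjusted p = 0.0338) and BPIFB1 (adjusted p = 0.0352). Without lactating cow A the LTF log2 fold change was 3.1 ± 0.37 (adjusted p = 0.0349).

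In the ampulla no group alone gave a call by edgeR or DESeq2 in these genes: edgeR called 0% of all genes in heifers, 0.0947% in non-lactating cows and 0% in lactating cows. In each group 1 of the 7 tested genes had an unadjusted p under 0.05, PIGR in heifers and lactating cows and WFDC2 in non-lactating cows. The share of all genes at that level was 9.20% in heifers, 11.1% in non-lactating cows and 4.26% in lactating cows. PIGR had log2 fold changes of -2.18 ± 0.59 in heifers (adjusted p = 0.317), -0.98 ± 0.48 in non-lactating cows (adjusted p = 0.47) and -1.83 ± 0.6 in lactating cows (adjusted p = 0.999). With the animal as a block PIGR was called in lactating cows (adjusted p = 0.0234; 0.187% of all genes called). Whether the side effect itself differed between the 3 groups was tested as an interaction. It was called for 0% of all genes in the isthmus and for 0% in the ampulla by edgeR. DESeq2 also called none of these 10, and none of them had an unadjusted edgeR p under 0.05.

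The other differences between the sides within a group were not called. In the isthmus the log2 fold changes of MUC1 were -0.28 to -0.13, those of MUC16 -0.77 to 0.1 and those of PIGR, tested in 2 groups, 0.06 and 0.1. In the ampulla they were -0.05 to 0.76 for BPIFB1, -2.17 to 0.24 for LTF, 0.24 to 0.78 for WFDC2, -0.57 to -0.06 for MUC1, -0.78 to -0.02 for MUC4 and -0.24 to -0.01 for MUC16. LCN2 and SPP1 did not pass the filter in any group, and BPIFA1 did not in the ampulla.

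The metabolic groups were compared in each of the 4 tissues, which gave 12 comparisons and 84 tests of these genes. EdgeR called 0 of the 84, with 17 at an unadjusted p under 0.05, a level that 3.57 to 11.8% of all genes reached in the single comparisons. These include BPIFA1 for non-lactating cows against heifers and against lactating cows in the ipsilateral isthmus. There it passed the filter on low counts only through the group where it was higher, so it is no support for the count. The share of all genes called was 0.00730% for non-lactating cows against heifers in the isthmus of the ipsilateral side and 0% in each of the other 11 comparisons. DESeq2 called 4 of these genes in 3 of the comparisons.

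In the ipsilateral isthmus, BPIFA1 had a mean of 1.94 ± 1.18 CPM (SD, n = 5) in non-lactating cows, 5.04 ± 1.06 (n = 5) in heifers and 4.93 ± 1.73 (n = 4) in lactating cows. BPIFB1 had means of 114 ± 53.5, 222 ± 30.1 and 211 ± 83.7 CPM in the same order. The non-lactating cows thus had the lowest mean of both BPI-fold genes in this tissue, and BPIFB1 did not overlap between non-lactating cows and heifers, the highest of the former being 178 and the lowest of the latter 186 CPM. Non-lactating cows differed from heifers by -1.36 ± 0.37 on the log2 scale for BPIFA1 (edgeR adjusted p = 0.198, DESeq2 adjusted p = 0.0497) and by -0.95 ± 0.27 for BPIFB1 (edgeR adjusted p = 0.21, DESeq2 adjusted p = 0.0347), where DESeq2 called 1.74% of all genes. BPIFA1 passed edgeR's filter here only through the heifers, with 16 to 32 reads against 6 to 21 in non-lactating cows. Its edgeR test is therefore no support for a difference. The other calls by DESeq2 were SPP1 for lactating against non-lactating cows in the isthmus of the ipsilateral side (adjusted p = 0.00169; 0.111% of all genes), where it did not pass edgeR's filter, and PIGR for lactating cows against heifers in the ampulla of that side (adjusted p = 0.0492; 0.121% of all genes). The SPP1 difference lay mostly with lactating cows A and B, at 20.6 and 20.3 CPM. Cows C and D held 1.59 and 1.31 CPM, and the non-lactating cows 0.593 to 0.902 CPM on 3 to 5 reads. For PIGR the edgeR log2 fold change was 1.36 ± 0.33 (adjusted p = 0.515), and lactating cows held 19.3 to 44 CPM where heifers held 7.61 to 23.1 CPM.

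The other differences between metabolic groups were not called by edgeR or DESeq2 with the filters described. Over the 12 comparisons the log2 fold changes were -0.98 to 1.02 for BPIFB1, -0.67 to 0.46 for WFDC2, -0.55 to 0.19 for MUC1, -1.14 to 1.72 for MUC4 and -0.46 to 1.05 for MUC16. LTF ranged from -1.08 to 3.16, and its highest value, for lactating against non-lactating cows in the contralateral ampulla, was -0.66 ± 0.35 without lactating cow A. PIGR ranged from 0.08 to 2.86 in 9 comparisons, and its highest value, for lactating cows against heifers in the contralateral isthmus, was 0.82 ± 0.81 without that cow. LCN2 and SPP1 did not pass edgeR's filter in any of the 12.

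Lactating cow A stood apart in several of these genes. It held the highest LTF value of its group in all 4 tissues (4068, 1016, 426 and 2587 CPM in the ipsilateral and contralateral isthmus and the ipsilateral and contralateral ampulla) and the highest PIGR value of any animal in the contralateral ampulla (295 CPM). Markers of leukocytes were also higher in its 4 libraries. The sum of 8 B or plasma cell markers was 127 to 199 CPM there, against 4.49 to 56.1 CPM (median 12.2) in the other 52 libraries. IGJ, the joining chain gene of secreted IgA and IgM, made up nearly all of that sum, with 120.3 to 187 CPM in cow A and 3.46 to 52.1 CPM in the others, while the other 7 markers reached at most 6.29 CPM. The sum of 10 macrophage markers was 172 to 410 CPM, against 24.7 to 107 CPM, that of 7 T cell markers 56.1 to 82.7 CPM, against 5.4 to 42.4 CPM, and that of 8 neutrophil markers 8.42 to 70.8 CPM, against 0.375 to 21.2 CPM. Their part in the values of cow A was not tested.

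Marker genes of other cells were also set beside the side difference in the isthmus. Of the 7 epithelial markers, KRT8 (log2 fold change 0.52), KRT18 (0.44), CLDN3 (0.31) and CDH1 (0.24) were higher and CLDN4 (-0.56) was lower on the ipsilateral side. Of the 4 secretory markers KRT7 was higher (0.61), and of the 10 ciliated cell markers CAPS was higher (0.51) and DNAH5 lower (-0.48). The plasma cell marker MZB1 was higher (1.32) and the endothelial marker KDR lower (-1.29). No macrophage, T cell, mesothelial, fibroblast or smooth muscle marker was called by edgeR.

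Neutrophil granules are a known source of lactoferrin and lipocalin 2. Of the 8 neutrophil markers, 2 passed the filter in the isthmus, and both were higher on the ipsilateral side, S100A8 by 2.43 and S100A12 by 1.33 on the log2 scale. S100A8 had a contralateral isthmus median of 0.359 CPM, near the limit of detection. Over the 56 libraries MMP8 had no read in any, CXCR2 none in 54, MPO none in 49, S100A9 none in 43, CSF3R none in 41, MMP25 none in 19, S100A8 none in 14 and S100A12 none in 1. The neutrophil marker sum ran from 0.983 to 60.7 CPM (median 9.84) in the ipsilateral and from 0.375 to 27.9 CPM (median 4.01) in the contralateral isthmus. The part of any of these cells in the side differences of LTF, the BPI-fold genes and WFDC2 was not tested.

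**Figure D4:**
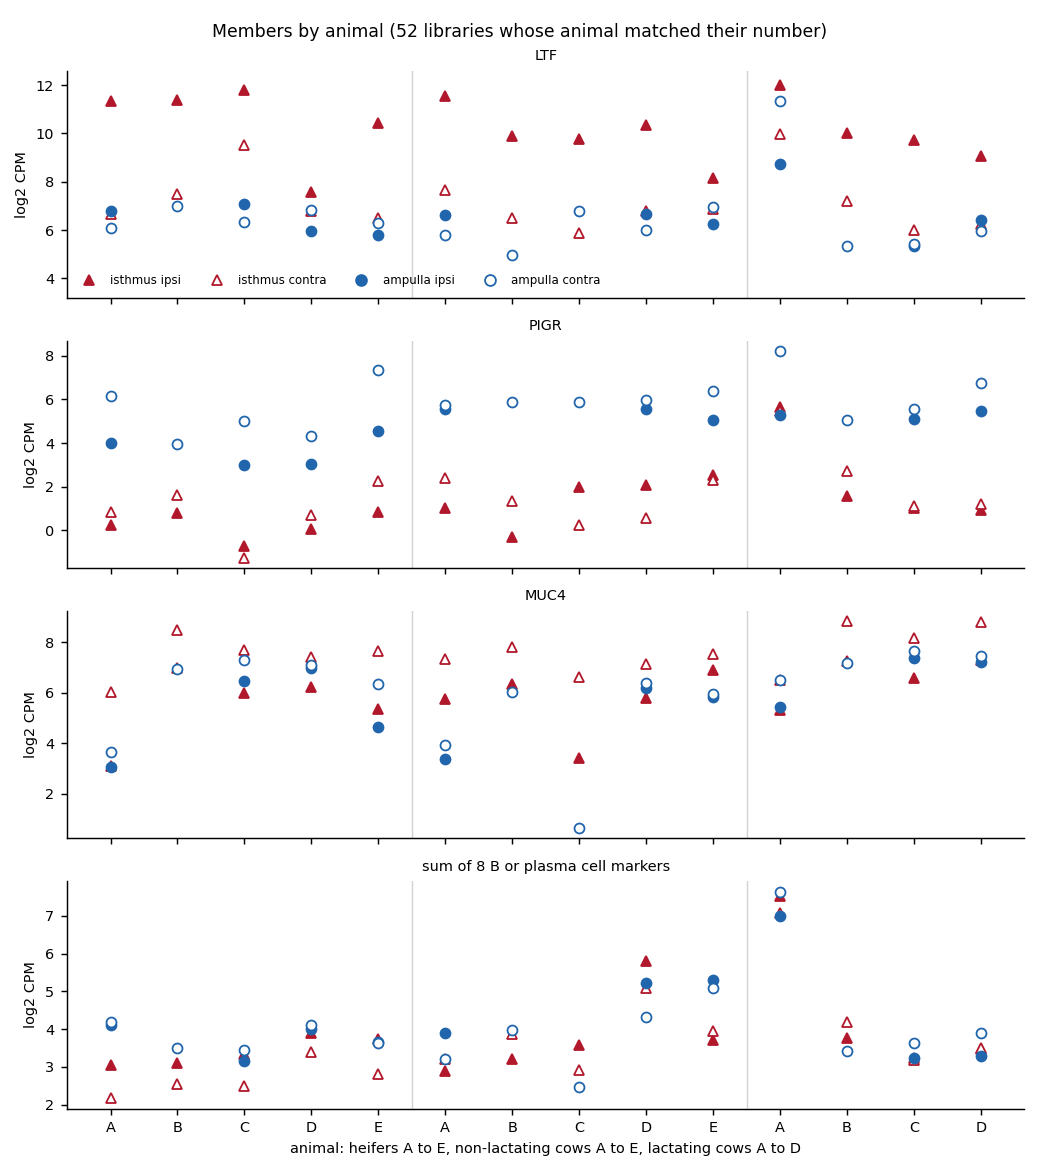
LTF, PIGR, MUC4 and the sum of 8 B or plasma cell markers by animal, as log2 CPM (log2 of CPM with a prior count of 2 for the genes); triangles are isthmus, circles ampulla, filled symbols ipsilateral and open symbols contralateral, in the 52 libraries whose animal matched their number. Lactating cow A is the highest of its group for LTF in all 4 tissues and has 127 to 199 CPM of B or plasma cell markers, and MUC4 ranges from 8.21 CPM in heifer A to 158 CPM in lactating cow D in the ipsilateral isthmus alone.

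How far a gene followed the animal varied among the 10. Over the 52 libraries that matched their animal, with each gene centred on its tissue and group, the share of the remaining variance that lay between animals was 78.6% for MUC4, 66.1% for LTF, 63.7% for MUC1 and 59% for PIGR. The share was 20.7% for BPIFA1 and 18.2% for BPIFB1, and the median over 13942 genes was 35.9%. For MUC4, heifer A had 8.21 and 64.6 CPM in the isthmus and 7.95 and 12 CPM in the ampulla, while heifer D had 73.7 and 170.1 CPM in the isthmus and 125 and 138 CPM in the ampulla. Non-lactating cow C had 1.15 CPM of MUC4 in the contralateral ampulla and 10.4 and 98 CPM in the isthmus. The 4 tissues of an animal share their genotype and day of collection, and these shares are given as a description.

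Of 138 further genes of mucosal defence, mucins, mucin glycosylation and osteopontin receptors, 122 were in the table. Between the sides of the isthmus 64 were tested, of which 13 were higher and 8 lower on the ipsilateral side, which is 32.8% against 28.4% of all genes, with a median log2 fold change of -0.03 against -0.01 over all genes. Of the 14 antimicrobial genes tested, 6 were higher and none lower, and of the 10 microbial sensors tested, none were higher and 3 lower, where 14.9% of all genes were higher and 13.5% lower. The genes with the largest increases were S100A8, a calcium-binding protein that sequesters metal ions (2.43 ± 0.62), AGR3, a protein disulphide isomerase family member of secretory epithelia (2.41 ± 0.4), DUOX1, an epithelial hydrogen peroxide-producing oxidase (1.73 ± 0.51), and FUT2, which fucosylates mucin glycans (1.34 ± 0.3), all as log2 fold changes. In the contralateral isthmus S100A8 and DUOX1 had medians of 0.359 and 0.22 CPM, against 2.4 and 1.35 CPM in the ipsilateral isthmus. Their folds thus rest on values near the limit of detection. AGR3 and FUT2 were also low there, with contralateral medians of 0.963 and 1.17 CPM. Such genes can pass the filter on low counts through the ipsilateral side alone. S100A8, DUOX1, AGR3 and FUT2 are therefore no support for the counts of higher genes. The largest decreases were in the membrane mucin MUC15 (-1.05 ± 0.2), the receptor TLR10 (-1 ± 0.29), the integrin subunit ITGB5 (-0.66 ± 0.1) and the O-glycan branching enzyme GCNT1 (-0.58 ± 0.22). TFF3, a trefoil peptide secreted with mucus, had medians of 135 CPM in the ipsilateral and 78.7 CPM in the contralateral isthmus, and it was among the genes called within heifers (1.07 ± 0.2, adjusted p = 0.00928).

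Between the sides of the ampulla 57 of the list were tested, and 3 were higher on the ipsilateral side and none lower, which is 5.26% against 4.99% of all genes (median log2 fold change -0.02, and -0.01 over all genes). These were NOS2, the inducible nitric oxide synthase (1.28 ± 0.29), AGR3 (0.99 ± 0.3) and C1GALT1C1, the chaperone of the core O-glycan synthase (0.44 ± 0.12). AGR3 was therefore higher on the ipsilateral side in both regions. In non-lactating cows alone the isthmus called NOS2 (1.87 ± 0.46) and GALNT10, an enzyme that starts mucin O-glycans (0.72 ± 0.13), as higher, and MUC15 (-1.87 ± 0.26) and ITGB5 (-0.74 ± 0.18) as lower. In heifers alone RNASE4 (1.11 ± 0.27) was higher, and MUC15 (-0.84 ± 0.17) and the sensor NOD2 (-0.65 ± 0.19) were lower. The side effect differed between regions for RNASE4 (1 ± 0.26), TLR6 (-0.56 ± 0.16), TLR4 (-0.55 ± 0.14) and GALNT4 (-0.53 ± 0.14), on the log2 scale and as isthmus minus ampulla.

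Between regions 64 of the list were tested on either side. On the ipsilateral side 17 were higher and 18 lower in the isthmus, 54.7% against 50.3% of all genes (median -0.05, all genes -0.02), and on the contralateral side 20 were higher and 18 lower, 59.4% against 43.5% (median -0.02, all genes -0.01). The lysozyme gene LYZ1 had medians of 18.2 and 20.8 CPM in the ipsilateral and contralateral isthmus and of 0 and 0.0864 CPM in the ampulla. SLPI, a secreted protease inhibitor, had medians of 1.26 and 0.812 CPM in the isthmus and 0 in either ampulla, so no fold is given for it or for LYZ1. TFF3 was higher in the isthmus by 3.83 ± 0.2 on the ipsilateral and 3.35 ± 0.22 on the contralateral side, and MUC15 by 3.37 ± 0.29 and 4.64 ± 0.28, as log2 fold changes. The sialyltransferase ST3GAL1 was lower by -2.26 ± 0.32 and -2.11 ± 0.36. GCNT4, the gel-forming mucin MUC19 and the whey acidic protein gene WFDC1 were also lower on either side, with isthmus medians of at most 0.329 CPM. MUC15 had ampulla medians of 0.968 and 0.811 CPM. Genes this low in 1 region can pass the filter on low counts through the other region alone. LYZ1, SLPI, MUC15, GCNT4, MUC19 and WFDC1 are therefore no support for these counts.

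The genes whose log2 CPM was most like each of the 10 over the 56 libraries were found by Pearson correlation, as a description of points that share animals, tissues and depth. BPIFB1 was closest to TFF3 (r = 0.96 over 56 libraries and 0.55 after each gene was centred on its condition mean) and to SLC13A5 (0.95 and 0.46). MUC16 was closest to CORIN (0.94 and 0.93) and TIMP3 (0.92 and 0.89), and these kept nearly the whole likeness within conditions. BPIFA1 was closest to GM2A (0.87 and 0.56) and PRPF4 (0.87 and 0.47), and PIGR to GRIN2B (0.86 and 0.47) and EPB41 (0.85 and 0.46). LTF was closest to STAP2 (0.83 and 0.53) and LTBP2 (0.83 and 0.61), and WFDC2 to CFL1 (0.8 and 0.68) and CSK (0.75 and 0.69). For MUC1 these were ERBB3 and GRN (0.73 each), for MUC4 KCNMB2 (0.62) and MYO7A (0.61), for SPP1 CHRDL1 (0.63) and its receptor gene CD44 (0.61), and for LCN2 APOBR and BCL10 (0.55 each). Among the 10 themselves the closest pair was BPIFA1 and BPIFB1 (r = 0.78, and 0.36 within conditions).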

How the data were processed

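RNA of 56 libraries (14 animals, 12 conditions) was sequenced from stranded total RNA libraries. The authors mapped the reads with TopHat2 2.0.13 and assigned them to genes with HTSeq 0.6.1 in its stranded, intersection-strict mode, per the labels and the study's methods; the deposited values are raw counts per gene. The 5 summary lines were left out. Between 8.66 and 13.7% of the counted alignments fell on genes, which limits the precision of genes with few reads. Antisense reads were kept apart by the stranded counting.

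In R 4.3.3, edgeR 4.0.16 (with limma 3.58.1) was run on the counts: filterByExpr with a minimum count of 10, TMM scaling, and the quasi-likelihood F test per comparison, with p-values adjusted by Benjamini-Hochberg over all genes tested and a threshold of 0.05. The standard error is the log2 fold change over the square root of F. Log2 CPM used a prior count of 2. Samples were grouped by metabolic group, region and side from the labels; comparisons over all groups held the group in the fit and no term for the animal. The alternatives were DESeq2 1.42.0, its size factors, no filter, 1 fit over all libraries of a region, the animal as a replicate block, leaving out each animal, and leaving out the mismatched libraries. Libraries of 1 animal carry the same number in the column names, and their deviations from the condition means over 10616 genes correlated with a median r of 0.39 over 14 isthmus pairs (-0.04 to 0.55) and 0.27 over 12 ampulla pairs (-0.01 to 0.66). Fits without the block treat these libraries as independent. The fits were tested on simulated data with known changes.

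The 10 genes and the lists of further genes were chosen with earlier results of these data known, and counts over them are descriptions. The 10 genes were followed in every comparison, and those not called within a group or between metabolic groups are given as ranges. Of the lists, the 4 called genes of each direction with the largest log2 fold change are named in the comparisons over all groups, and at most 4 called genes in the others. For likeness, the 2 genes with the highest Pearson r are named, among those with a mean log2 CPM above 1 and no provisional LOC symbol. Libraries with other numbers than their group's were kept under their labelled group.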

Additional observations from a re-analysis of the deposited data

Results flagged for a closer look

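In each set of 1 gene and 1 condition, the highest and the lowest library were checked for a gap to the nearest other library that took up most of the set's range (Dixon's criterion at 95%). Of 115 sets, 21 held such a library. For independent, normally distributed values chance alone flags about 1 in 20, which is 5.75 of these. CPM values need not be normally distributed and the sets share animals, so 21 is not read as an excess over 5.75. All 21 were the highest of their set, and sets with few reads are among them.

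Lactating cow A gave 11 of the 21. Its LTF values were 4068 CPM in the ipsilateral isthmus (others 535 to 1042), 1016 in the contralateral isthmus (63.5 to 146), 426 in the ipsilateral ampulla (40.8 to 85.3) and 2587 in the contralateral ampulla (40 to 62.5). Its PIGR values were 50.5 CPM in the ipsilateral isthmus (others 1.48 to 2.54) and 43.7 in the contralateral isthmus (1.71 to 6.23). Its BPIFB1 value was 14.5 CPM in the contralateral ampulla (others 1.17 to 2.9). LCN2 was 0.998 CPM in its contralateral isthmus, where the others had no read, and 1.55 CPM in its contralateral ampulla (0 to 0.193). SPP1 was 5.96 CPM in its ipsilateral ampulla (0 to 0.374) and 20.4 in its contralateral ampulla (0 to 1.99).

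In heifers, LTF was 737 CPM in the contralateral isthmus of heifer C (others 90.7 to 182) and WFDC2 was 942 CPM in the contralateral ampulla of heifer E (103 to 233). SPP1 was 3.59 CPM in the ipsilateral isthmus of heifer A (0 to 0.585), 7.26 in its contralateral isthmus (0.48 to 1.33) and 3.81 in the ipsilateral ampulla of heifer E (0 to 0.217). In non-lactating cows, BPIFA1 was 3.98 CPM in the ipsilateral isthmus of cow B (1.1 to 1.8), PIGR 83.6 in the contralateral ampulla of cow E (53.9 to 62.4), LCN2 3.96 in the contralateral ampulla of cow B (0 to 1.14) and SPP1 6.94 in the contralateral isthmus of cow C (0 to 1.66). In lactating cow B, SPP1 was 58.9 CPM in the contralateral isthmus (1.07 to 1.4).

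The side effect on LTF differed between isthmus and ampulla (edgeR interaction, adjusted p = 0.0016), the 1 difference between regions that passed among the 9 genes tested.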

How the results depend on the processing

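Over the 24 calls of these genes, 121 of 124 values under another setting and 279 of 289 values with 1 animal left out passed the threshold in the same direction. DESeq2's size factors moved no median over all genes by more than 0.01. None of the 24 calls turned with 1 animal left out, and of the 145 differences tested and not called 49 did, among them LTF between regions on the contralateral side, -0.00491 without heifer C and 0.98, past the threshold, without lactating cow A. The number of the 10 genes called moved by over 1.5 times as follows. The share of all genes called is not given for the fits with no filter, over a region, with animals left out or with exchanged numbers put back. Counts from those fits are descriptions only. Between the sides of the isthmus in heifers (4 called) it was 2 in 1 fit over all libraries of the region and 1 to 4 with 1 heifer left out (2 without A, 1 without B or E). In non-lactating cows (1 called) it was 2 with the replicate block and 1 to 2 with 1 cow left out (2 without C). In lactating cows (0 called) it was 2 by DESeq2, 1 with no filter, 1 in 1 fit over the region, 4 with the replicate block and 0 to 1 with 1 cow left out (1 without A). Between the sides of the ampulla it was 1 in lactating cows (0 called) with the replicate block, and over all groups (1 called) 4 with the replicate block and 1 to 2 with 1 animal left out (2 without heifer E). A replicate block that gave 2 libraries their exchanged animal numbers back and left out the other 2 mismatched ones, added after seeing the data, gave 2 and 3, and for the side by region interaction (1 called) either block gave 2. Between metabolic groups (0 called) DESeq2 gave 2 (non-lactating against heifers) and 1 (lactating against non-lactating) in the isthmus and 1 (lactating against heifers) in the ampulla, all ipsilateral, and no filter gave 1 (lactating against non-lactating) in the contralateral ampulla. The causes were not tested. The block also called WFDC2 between ipsilateral regions and ended the call of SPP1 between contralateral regions. BPIFA1, LCN2 and SPP1 rest on few reads in most libraries, and depth limits what could be detected for them. All libraries of 1 animal, and all comparisons of a group, share animals, with 4 or 5 animals a group.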
